A study of Mus musculus with 4 samples.

Results

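The 10 endothelial genes described here were followed through 4 microarrays of whole mouse embryos. The genes are *Kdr*, *Flt1*, *Tek*, *Tie1*, *Pecam1*, *Cdh5*, *Emcn*, *Sox18*, *Etv2* and *Erg*, and they were taken by their names in the array annotation, which names 37323 genes and gives these 10 a total of 15 probes. The study compared wild type (WT) embryos with embryos lacking the kinase Dyrk2 (*Dyrk2*-/-), to see how gene expression differs early in organ formation. All embryos were of the C57BL/6 strain, and the labels give whole embryo as the tissue, although their extraction text speaks of cells. The 4 groups were WT at embryonic day 8.5 (E8.5), *Dyrk2*-/- at E8.5, WT at E10.5 and *Dyrk2*-/- at E10.5, with 1 array each. The mutant alleles are small deletions made with a CRISPR/Cas9 nickase. The allele behind each array and the number of embryos behind each RNA are not given in the sources used here. Because each group is a single array, nothing repeats a genotype difference at a given stage, and such differences carry no p-value here.

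Endothelial cells line all blood vessels. In the mouse embryo they arise from mesoderm under the control of the ETS factor Etv2, which is active for a short time and also opens the blood lineage. The early vessels are then remodelled into arteries, veins and capillaries, with vascular endothelial growth factor (VEGF) and angiopoietins signalling through receptor tyrosine kinases on the endothelial surface. Whole embryos hold endothelium as a small part of their cells, so that fewer endothelial cells and less RNA per endothelial cell cannot be told apart in any value given here.

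Each value is the log2 intensity of a probe minus the 75th percentile of its array, so that 0 marks the same point of every array. Where a gene has several probes the brightest one stands for it, and in all 10 genes it passed the scanner's flag for signal well above background on each of 4 arrays. Some probes are printed repeatedly and give a spread between spots. For the 10 genes this spread came to a median of 0.18 (log2) for an E8.5 ratio and 0.14 for an E10.5 ratio. It covers the spots of an array and not the difference between embryos. A ratio of 1.5-fold was the threshold for a difference.

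The targeted gene was examined first. Its brighter probe read 0.06 (WT) and 0.76 (*Dyrk2*-/-) in the E8.5 pair and −0.31 and 0.34 in the E10.5 pair. The array labelled *Dyrk2*-/- was the higher one of each pair, by 1.62-fold and 1.57-fold, and by 1.02-fold and 1.21-fold for the other probe. At E8.5 the log2 ratios of the 2 probes (0.70 and 0.03) became 0.15 and −0.52 with spike-in scaling, and 0.44 and −0.22 without scaling. At E10.5 both stayed positive, with 0.81 and 0.44 under spike-in scaling and 0.52 and 0.15 without scaling. A small deletion need not lower the transcript, and the genotype of an array is known here from its label alone, on which all directions between genotypes depend. *Rplp0*, a ribosomal reference gene, was 1.14-fold higher on the array labelled *Dyrk2*-/- at E8.5 and 1.06-fold higher at E10.5. The E10.5 arrays differed in sex-linked genes, since *Xist* was well above background only on the array labelled *Dyrk2*-/- and the brightest probes of the Y-linked *Ddx3y*, *Eif2s3y*, *Kdm5d* and *Uty* only on the other 3 arrays. The part of this difference in the results at E10.5 was not tested.

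**Figure D1:**
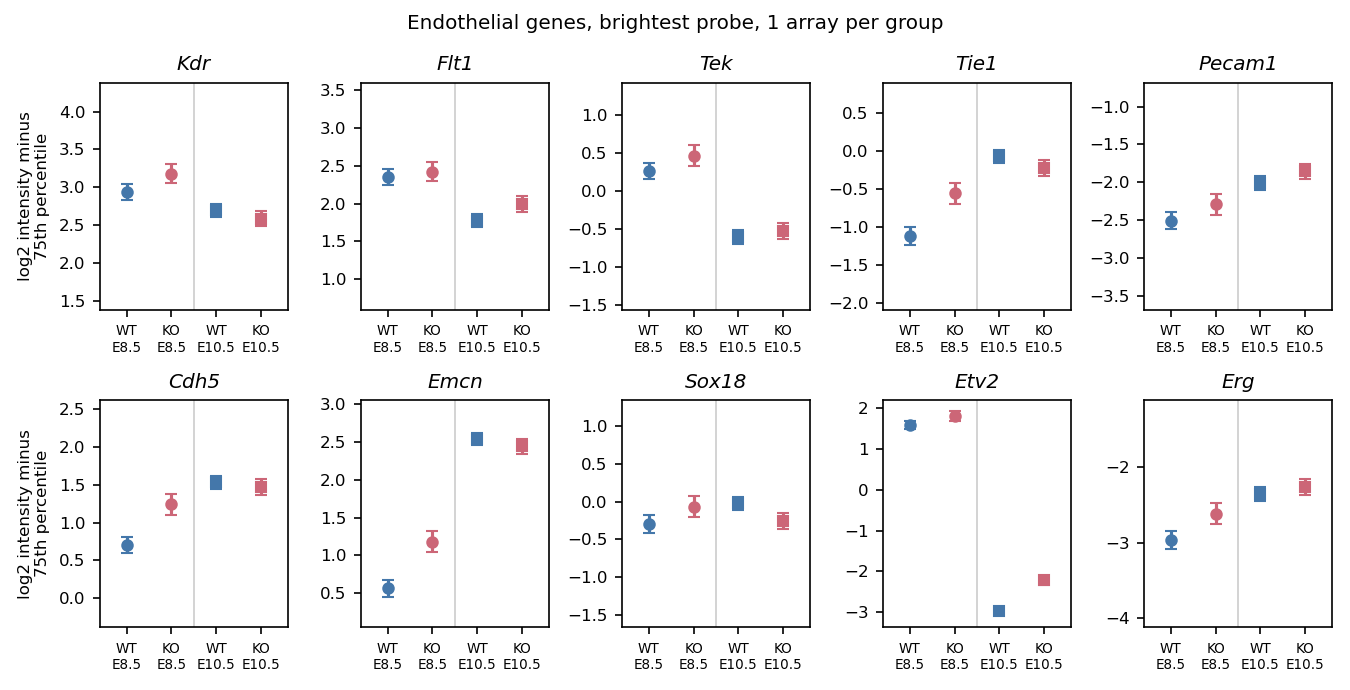
Log2 intensity minus the 75th percentile of the array for the brightest probe of each of the 10 genes on each of the 4 arrays (circles E8.5, squares E10.5, blue WT, red the arrays labelled *Dyrk2*-/- or KO). Bars are the median SD between repeated spots of probes of similar signal. *Etv2* read 1.59 and 1.81 for the E8.5 pair and −2.97 and −2.23 for the E10.5 pair, and *Emcn* 0.57 and 1.18 for the E8.5 pair and 2.54 and 2.44 for the E10.5 pair.

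The largest differences among the 10 genes lay between the stages. *Etv2* was far lower at E10.5, *Tek* and the VEGF receptors *Flt1* and *Kdr* were lower by smaller amounts, and *Emcn*, *Tie1* and *Cdh5* were higher. Stage had 2 arrays on each side, as did genotype over both stages. It was tested with limma in a model of genotype and embryonic day, which leaves 1 residual degree of freedom. Limma moderates the SE of each gene towards the variance of probes of similar intensity, so the SE is not that gene's own spread alone. With the adjusted p held below 0.05 (limma, Benjamini-Hochberg), 3 of the 10 genes rose and 4 fell, where 15.7% of the 32289 probes tested rose and 19.6% fell. The 3 genes past the threshold upward are a larger share than among all probes, as are the 4 downward, and many probes of the array differed between the stages. *Pecam1*, *Erg* and *Sox18* did not pass the threshold.

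*Etv2*, the ETS factor that starts endothelial and blood development, read 1.59 (WT) and 1.81 (*Dyrk2*-/-) for the E8.5 pair and −2.97 and −2.23 for the E10.5 pair. Both E8.5 arrays were high and both E10.5 arrays low, with no overlap. The log2 difference was −4.30 (SE 0.168, limma with Benjamini-Hochberg, adjusted p = 6.68e-07). Between arrays of the same genotype *Etv2* was 23.7-fold lower at E10.5 in WT and 16.4-fold lower in *Dyrk2*-/-. Its log2 ratio stayed between −4.64 and −3.26 under every scaling and background correction tried. The *Etv2* probe lies in chr7:31418776-31418835 (mm9, minus strand), in coding sequence of the ETS domain. Its sequence is shown because it carried the largest difference of the 10 genes, and that of *Tie1* (chr4:118144132-118144191, mm9, minus strand, coding sequence) for a gene that rose.
Etv2: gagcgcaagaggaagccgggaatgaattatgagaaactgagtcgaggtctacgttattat
Tie1: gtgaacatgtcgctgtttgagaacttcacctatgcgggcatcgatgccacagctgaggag

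The VEGF receptors were the next group. *Kdr* encodes the main signalling receptor for VEGF-A and marks endothelial precursors. It read 2.94 and 3.18 for the E8.5 pair (WT first, as in all pairs below) and 2.70 and 2.59 for the E10.5 pair. Both E10.5 arrays were below both E8.5 arrays, and the log2 difference was −0.42 (SE 0.132, limma with Benjamini-Hochberg, adjusted p = 0.0354). This call was lost under quantile normalization, with the deposited table, without scaling and with spike-in scaling, where the difference shrank to between −0.27 and −0.14. It was also lost without limma's intensity trend, with the difference unchanged. Under spike-in scaling *Kdr* was 0.04 higher at E10.5 on the *Dyrk2*-/- arrays instead of lower.

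*Flt1*, which binds VEGF-A tightly and also has a soluble form that traps it, read 2.35 and 2.42 for the E8.5 pair and 1.77 and 2.0 for the E10.5 pair. The E10.5 arrays were again the lower ones, with a log2 difference of −0.50 (SE 0.124, limma with Benjamini-Hochberg, adjusted p = 0.0130). The call was lost under the normexp background correction (−0.35, adjusted p = 0.0518, limma), without scaling (−0.26) and with spike-in scaling (−0.22). It was also lost without limma's intensity trend (adjusted p = 0.0844, limma), with the difference unchanged. Under spike-in scaling the *Dyrk2*-/- arrays turned to 0.21 higher at E10.5.

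*Flt1* had 3 further probes on the array. Both probes of the transcript ENSMUST00000110529 were well above background on all 4 arrays. One read 0.36 and −0.07 for the E8.5 pair and −0.27 and −0.31 for the E10.5 pair, with a stage difference of −0.43 (adjusted p = 0.0524, limma), and the other −0.44, −0.27, −0.90 and −1.04, with −0.61 (adjusted p = 0.0140). All 3 bright *Flt1* probes were thus lower at E10.5 in both genotypes. They did not share a direction between genotypes at E8.5, where the first of the 2 was 0.43 lower on the *Dyrk2*-/- array, or at E10.5, where the brightest was 0.22 higher and the other 2 were 0.04 and 0.13 lower. The remaining *Flt1* probe, AK005502, and the 2 further *Kdr* probes, EU884114 and ENSMUST00000149573, were not well above background on any array.

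The Tie receptors went opposite ways. *Tek* (Tie2), the receptor of the angiopoietins, read 0.27 and 0.47 for the E8.5 pair and −0.60 and −0.53 for the E10.5 pair. It fell by 0.93 on the log2 scale (SE 0.140, limma with Benjamini-Hochberg, adjusted p = 0.00101), with 1.82-fold in WT and 2.0-fold in *Dyrk2*-/-. *Tie1*, its co-receptor, read −1.12 and −0.55 for the E8.5 pair and −0.07 and −0.22 for the E10.5 pair. It rose by 0.69 (SE 0.187, adjusted p = 0.0188, limma), and the ratio was 2.08-fold in WT and 1.26-fold in *Dyrk2*-/-. Both genes kept these directions under every scaling tried, and both lost the call under spike-in scaling, where the differences were −0.65 for *Tek* and 0.98 for *Tie1*. *Tie1* also lost it without limma's trend, with the difference unchanged.

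The surface and junction genes were all higher at E10.5. *Emcn*, a sialomucin of capillary and venous endothelium, read 0.57 and 1.18 for the E8.5 pair and 2.54 and 2.44 for the E10.5 pair. The stages did not overlap, and *Emcn* rose by 1.62 (SE 0.171, limma with Benjamini-Hochberg, adjusted p = 0.000135), a call kept under all 9 alternatives to the fit. The ratio was 3.93-fold in WT and 2.40-fold in *Dyrk2*-/-. *Cdh5* (VE-cadherin), the adhesion molecule of endothelial junctions, read 0.70 and 1.24 for the E8.5 pair and 1.53 and 1.47 for the E10.5 pair. It rose by 0.53 (SE 0.161, adjusted p = 0.0314, limma), and lost the call under spike-in scaling, where the difference was 0.81, and without the trend, where it was unchanged. *Pecam1* (CD31), an adhesion molecule that endothelium shares with platelets and leukocytes, read −2.51 and −2.29 for the E8.5 pair and −2.01 and −1.86 for the E10.5 pair. Its E10.5 arrays were the higher ones, but the difference of 0.46 (SE 0.187) did not pass the threshold (adjusted p = 0.0823, limma with Benjamini-Hochberg).

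Of the remaining transcription factors, *Erg*, the ETS factor that maintains endothelial identity after *Etv2* has declined, read −2.97 and −2.62 for the E8.5 pair and −2.36 and −2.27 for the E10.5 pair. The difference of 0.48 (SE 0.209) did not pass the threshold (adjusted p = 0.105, limma with Benjamini-Hochberg). *Sox18*, an SRY-related factor of early vessels and of lymphatic precursors, read −0.29 and −0.07 for the E8.5 pair and −0.02 and −0.25 for the E10.5 pair. Its 4 values overlapped between stages, and the difference was 0.04 (SE 0.158, adjusted p = 0.859, limma). Without scaling between arrays *Pecam1* and *Erg* passed the threshold as higher at E10.5 (adjusted p = 0.00397 and 0.00733, limma), while *Kdr* and *Flt1* did not pass it as lower.

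**Figure D2:**
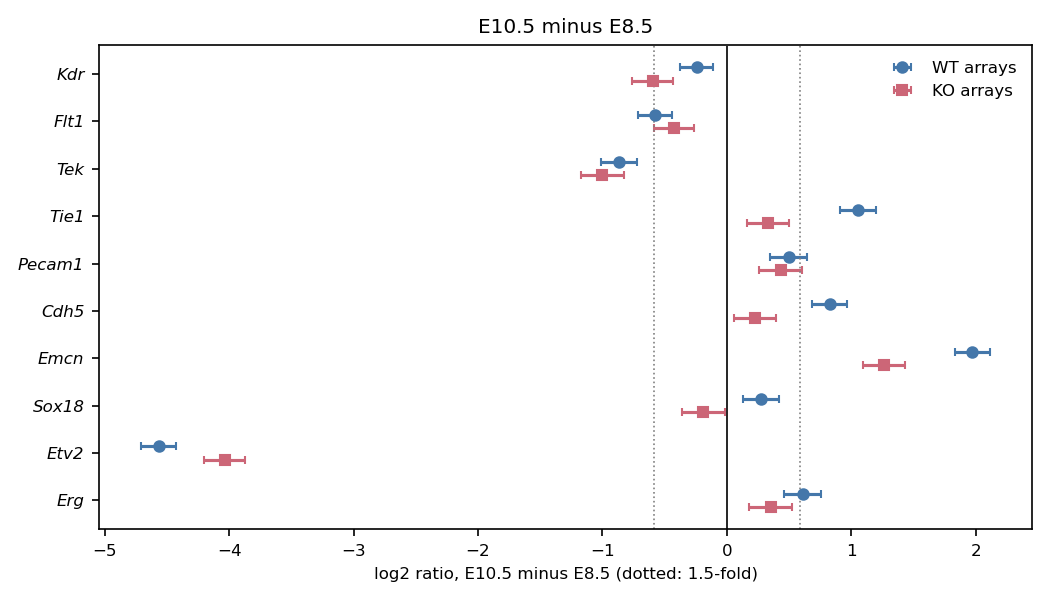
Log2 ratio of E10.5 to E8.5 for the 10 genes on the WT arrays (blue circles) and on the arrays labelled *Dyrk2*-/- (red squares), with the spread between repeated spots as bars and dotted lines at 1.5-fold. *Etv2* lay at −4.57 and −4.03 and *Emcn* at 1.97 and 1.26, and *Sox18* lay at 0.27 and −0.19, the second of which turned positive without scaling or with spike-in scaling.

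Taken per genotype, 6 of the 10 genes differed 1.5-fold or more between stages in WT. *Emcn*, *Tie1*, *Cdh5* and *Erg* were higher at E10.5, against 18.8% of the 21788 genes measured, and *Etv2* and *Tek* lower, against 17.5%. *Erg* (0.61) fell short of 1.5-fold under quantile normalization, normexp, spike-in scaling and with the deposited table (0.30 to 0.54). In *Dyrk2*-/-, *Emcn* alone was higher at E10.5 by that threshold, against 17.5% of 21404 genes, and *Etv2*, *Tek* and *Kdr* were lower, against 13.9%. *Kdr* (−0.60) fell short of 1.5-fold under quantile normalization, normexp, no scaling and with the deposited table (−0.57 to −0.29). With spike-in scaling it was 0.04 higher. The median log2 ratio of the 10 genes was 0.39 in WT and 0.02 in *Dyrk2*-/-, and that of all genes was −0.08 and −0.05. Spike-in scaling moved the median of all genes by 0.64 in *Dyrk2*-/-, and 5 of the 10 genes were then 1.5-fold higher and 1 lower, as were 10719 and 985 of 21404 genes. The difference between the genotypes in these stage ratios was not tested.

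Between genotypes at E8.5, each of the 10 genes read higher on the array labelled *Dyrk2*-/-, where 46.5% of the 20848 genes measured did. *Emcn* was 1.53-fold higher and the only one past 1.5-fold, against 5.14% of all genes. *Tie1* was 1.48-fold and *Cdh5* 1.45-fold higher, just under the threshold. None was 1.5-fold lower, against 6.52% of all genes. The median log2 ratio of the 10 genes was 0.24, and the median of all genes was −0.02. Several lists of related genes given below had medians as large or larger.

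The remaining 7 genes lay between 0.07 and 0.35 on the log2 scale. *Erg* stood at 0.35, *Kdr* at 0.24, *Sox18* at 0.23, *Pecam1* and *Etv2* at 0.22, *Tek* at 0.20 and *Flt1* at 0.07. For *Flt1* the ratio was smaller than its spread between spots of 0.16, and the mean of its 3 bright probes was −0.06. The directions of these 7 genes depended on how the arrays were scaled. Spike-in scaling lowered every E8.5 ratio, moving all genes by a median of −0.55, and turned 8 of the 10 genes to lower, leaving *Emcn* at 0.07 and *Tie1* at 0.02. No scaling moved all genes by −0.26 and turned 6, leaving *Emcn*, *Tie1*, *Cdh5* and *Erg* higher. The median was then −0.31 for the 10 genes beside −0.57 for all genes under spike-in scaling, and −0.02 beside −0.28 without scaling. Either change adds 1 constant to every ratio of a pair, so the distance between the 10 genes and all genes is the same by construction.

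At E10.5 the 10 genes were divided, with 5 above and 5 below WT on the *Dyrk2*-/- array, and 49.9% of 21350 genes were higher. *Etv2*, on its low E10.5 level, was 1.68-fold higher and the only one past 1.5-fold, against 3.50% of all genes. None was 1.5-fold lower, against 4.22%. The *Etv2* log2 ratio of 0.75 was above its spread between spots of 0.14, and it ran from 0.40 to 0.91 over the scalings and background corrections tried. The other 9 genes lay between −0.23 for *Sox18* and 0.22 for *Flt1*, whose mean over its bright probes was 0.02. The median of the 10 genes was 0.00 and that of all genes 0.00. Spike-in scaling moved all genes by 0.16 and turned *Kdr*, *Tie1*, *Cdh5* and *Emcn* to higher, while no scaling moved them by −0.13 and turned *Tek* and *Erg* to lower.

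**Figure D3:**
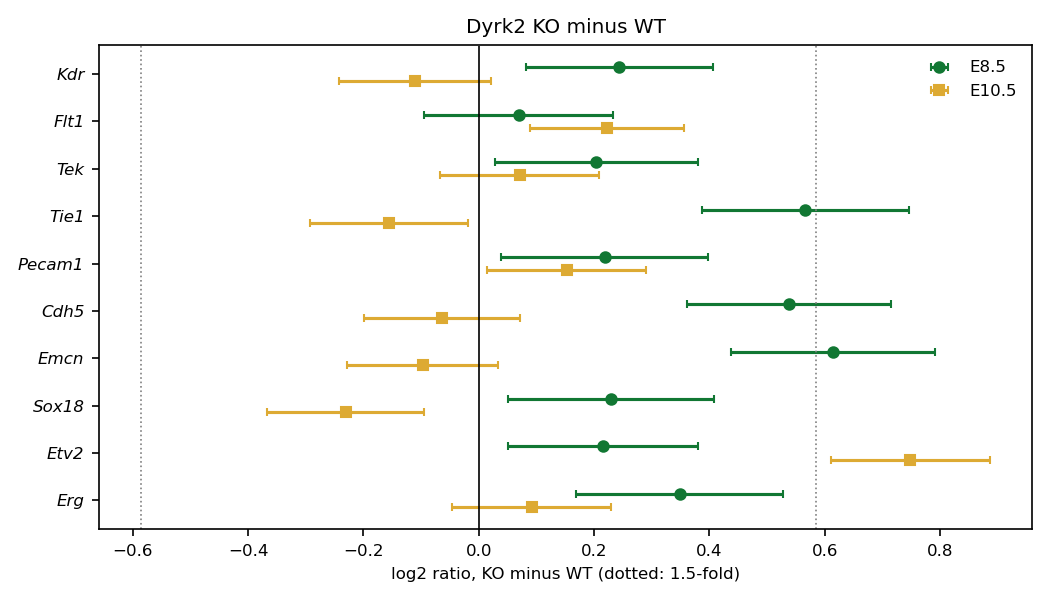
Log2 ratio of the array labelled *Dyrk2*-/- to the WT array for the 10 genes at E8.5 (green circles) and E10.5 (yellow squares), with the spread between repeated spots as bars and dotted lines at 1.5-fold. At E8.5 the ratios ran from 0.07 to 0.61 and at E10.5 from −0.23 to 0.75, and spike-in scaling moved the E8.5 ratios to between −0.48 and 0.07.

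Over both stages none of the 10 genes was called for genotype by limma with Benjamini-Hochberg, where 0.0186% of 32289 probes were called, 6 in all. *Etv2* came nearest, with a log2 difference of 0.48 (SE 0.168, adjusted p = 0.884, limma). At an unadjusted p under 0.05 it was the 1 gene of the 10, as were 1591 of all probes. The residual of the fit is what differs in the genotype effect from one stage to the other, so that an effect present at a single stage also adds to the error of the fit.

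The genes that read higher on the *Dyrk2*-/- array at E8.5 can be set beside their change with age. These comparisons share the WT E8.5 array, so that an unusual value on that array enters both, and the values are given side by side only. *Emcn* was 0.61 higher in *Dyrk2*-/- at E8.5 and 1.97 higher at E10.5 in WT. For *Tie1* the values were 0.57 and 1.05, and for *Cdh5* 0.54 and 0.83. *Etv2* and *Tek*, the genes with the lowest WT stage ratios (−4.57 and −0.87), were 0.22 and 0.20 higher in *Dyrk2*-/- at E8.5. With spike-in scaling their E8.5 ratios were −0.33 and −0.34, and those of *Emcn*, *Tie1* and *Cdh5* 0.07, 0.02 and −0.01. Without scaling they were −0.04 and −0.05 for *Etv2* and *Tek*, and 0.36, 0.31 and 0.28 for the others.

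Other genes of the same pathways were taken from lists. Of the 10 VEGF ligands and receptors, which include *Kdr* and *Flt1*, limma with Benjamini-Hochberg called 7 lower and 1 higher at E10.5, against 19.6% and 15.7% of all probes. *Vegfd*, a ligand, was the one that rose, reading −1.82 and −1.36 for the E8.5 pair and −0.04 and −0.19 for the E10.5 pair (log2 difference 1.48, adjusted p = 0.000314, limma). *Vegfc*, the lymphatic ligand, fell by 0.48 (adjusted p = 0.0243, limma) and *Vegfb* by 0.39 (adjusted p = 0.0371). *Flt4*, the receptor of *Vegfc*, and *Pgf*, a ligand of *Flt1*, did not pass the threshold. Between genotypes none of the 10 differed 1.5-fold at either stage. Of all genes, 5.14% were higher and 6.52% lower by that threshold in the E8.5 pair, against 3.50% and 4.22% in the later pair. With shares this small, a count of 0 among 10 genes does not set the list apart from all genes. Within the list the largest ratio at E8.5 was that of *Flt4*, which was 1.47-fold higher in *Dyrk2*-/-. The largest at E10.5 was that of *Pgf*, 1.35-fold higher. Spike-in scaling turned the list with age in *Dyrk2*-/-, from 9 of the 10 genes lower to 9 higher (*Flt4* from −0.62 to 0.01), while in WT 9 stayed lower.

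Of the 6 angiopoietin and Tie genes, 5 were measured. *Angpt2*, the context-dependent Tek ligand made by endothelium itself, read −1.38 and −0.67 for the E8.5 pair and −0.76 and −0.80 for the E10.5 pair. The low value was the WT E8.5 array, so that *Angpt2* was 1.63-fold higher in *Dyrk2*-/- at E8.5. With spike-in scaling or without scaling, 0 of the 5 genes, *Angpt2* included, were 1.5-fold higher at that stage. *Angpt1*, the activating ligand made by mural and mesenchymal cells, read 0.63, 0.29, 0.64 and 0.47 in the same order and was 1.26-fold lower in *Dyrk2*-/- at E8.5. *Ptprb* (VE-PTP), a phosphatase that acts on Tek, rose with age by 0.69 (adjusted p = 0.00425, limma with Benjamini-Hochberg), and *Angpt4* passed the background flag on no array.

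The list of 28 other endothelial surface and junction genes had the largest median ratio of the vascular lists at E8.5. Of its 25 genes measured there, 22 read higher on the *Dyrk2*-/- array and 10 were 1.5-fold or more higher, with none lower by that threshold, against 5.14% and 6.52% of all genes. Their median log2 ratio was 0.39. Among genes above background on both arrays the largest ratios were those of *Mmrn1*, *Vwf* and *Stab1*, with 2.35-fold, 2.0-fold and 1.97-fold. *Stab2* and *Adgrl4* were above background on the *Dyrk2*-/- array only, and so entered the count through the array where they were high. They were at least 2.38-fold and 1.53-fold higher. The count of 10 became 8 under quantile normalization and with the deposited table, 6 without scaling and 5 under normexp. *Vwf*, the von Willebrand factor of endothelium and platelets, read −0.45 (WT) and 0.55 (*Dyrk2*-/-), and *Mmrn1*, a multimerin, −3.53 and −2.30. A second *Vwf* probe above background on all 4 arrays had the opposite direction at E8.5 and between the stages in both genotypes. Under spike-in scaling 3 of the 25 were 1.5-fold higher and 2 lower, as were 291 and 9916 of 20848 genes, and the median was −0.16, beside −0.57 for all genes.

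At E10.5, 0 of the 26 measured genes of this list differed 1.5-fold between genotypes, against 3.50% of all genes higher and 4.22% lower, and their median was −0.08. With spike-in scaling 16 of the 26 were higher (median 0.08), and without scaling 0 were (median −0.21). *Mmrn1* read −0.06 and −0.35 at E10.5 and *Vwf* 1.37 and 1.15, so that the WT array was the higher one. Between the stages 13 of the 26 rose and 2 fell (limma, Benjamini-Hochberg), against 15.7% and 19.6% of all probes. Of the 13, *Clec14a* was above background on the E10.5 arrays only and so entered the test through the stage where it was high. *Robo4*, an endothelial guidance receptor, read −0.92 and −0.49 for the E8.5 pair and 2.15 and 1.94 for the E10.5 pair and rose by 2.75 (adjusted p = 5.24e-06, limma). *Cd34*, a sialomucin of endothelium and blood progenitors, rose by 1.49 (adjusted p = 2.50e-05, limma) and read 2.41 and 2.40 at E8.5. *Sele* and *Selp* were not well above background on any array.

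Among 17 other transcription factors of endothelium, 3 rose and 5 fell with age (limma, Benjamini-Hochberg), where 15.7% of all probes rose and 19.6% fell. *Klf2*, which responds to blood flow, read −1.82 and −1.75 for the E8.5 pair and 0.22 and −0.14 for the E10.5 pair and rose by 1.83 (adjusted p = 5.42e-05, limma). *Elk3*, an ETS factor, rose by 0.80 (adjusted p = 0.00617, limma), while another of its probes had the opposite direction in *Dyrk2*-/-. *Sox17*, a relative of *Sox18*, fell by 1.05 (adjusted p = 0.000698, limma) and *Foxc2* by 1.04 (adjusted p = 0.000352). Between genotypes at E8.5, *Elk3* was 1.54-fold higher and *Hhex*, a homeobox gene of endothelium and endoderm, 1.82-fold lower in *Dyrk2*-/-. At E10.5, *Tal1*, a partner of *Etv2* in blood and endothelial specification, was 1.79-fold higher and *Gata2* was 1.44-fold lower.

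The arterial, venous and endocardial lists had medians a little below 0 at E8.5. The median log2 ratio of the 13 arterial genes was −0.01, with 6 higher and 7 lower, that of the 7 venous and lymphatic genes −0.08 and that of the 6 endocardial genes −0.13. *Gja5* (connexin 40), an arterial gap junction gene, had the largest positive ratio of the 3 lists, reading −2.19 and −1.46 for the E8.5 pair and 0.19 and −0.02 for the E10.5 pair. It was 1.66-fold higher in *Dyrk2*-/- at E8.5 and rose with age by 1.91 (adjusted p = 0.000205, limma with Benjamini-Hochberg), while another of its probes had the opposite direction between stages in *Dyrk2*-/-. *Notch1* was 1.71-fold lower at its brightest probe at E8.5, but 0.01 higher (log2) in the mean over its probes. Of the arterial genes 6 rose and 2 fell with age, of the venous and lymphatic genes 2 rose and 3 fell, and of the endocardial genes 0 rose and 4 fell (limma, Benjamini-Hochberg), against 15.7% and 19.6% of all probes. *Nr2f2*, which sets venous identity, rose by 0.79 (adjusted p = 0.00192, limma), and *Lyve1* fell by 1.35 (adjusted p = 0.0106). *Gata4* of the endocardial list fell by 1.27 (adjusted p = 0.000234, limma).

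The vascular lists other than the endocardial one were joined, 6 in all, and held 77 genes besides the 10. At E8.5, 51 of 73 measured read higher in *Dyrk2*-/-, against 46.5% of all genes. By 1.5-fold or more 13 were higher and 2 lower (5.14% and 6.52% of all genes), and the median was 0.20. The 13 include *Stab2* and *Adgrl4*, which were above background on the *Dyrk2*-/- array only. At E10.5, 21 of 74 read higher, 1 by 1.5-fold or more and 1 lower (3.50% and 4.22% of all genes), with a median of −0.09. This E10.5 direction depended on the scaling. With spike-in scaling 45 of the 74 were higher (median 0.07), and without scaling 4 were (median −0.23). Under spike-in scaling 3 of the 73 were 1.5-fold higher at E8.5 and 19 lower, where 291 and 9916 of 20848 genes were.

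**Figure D4:**
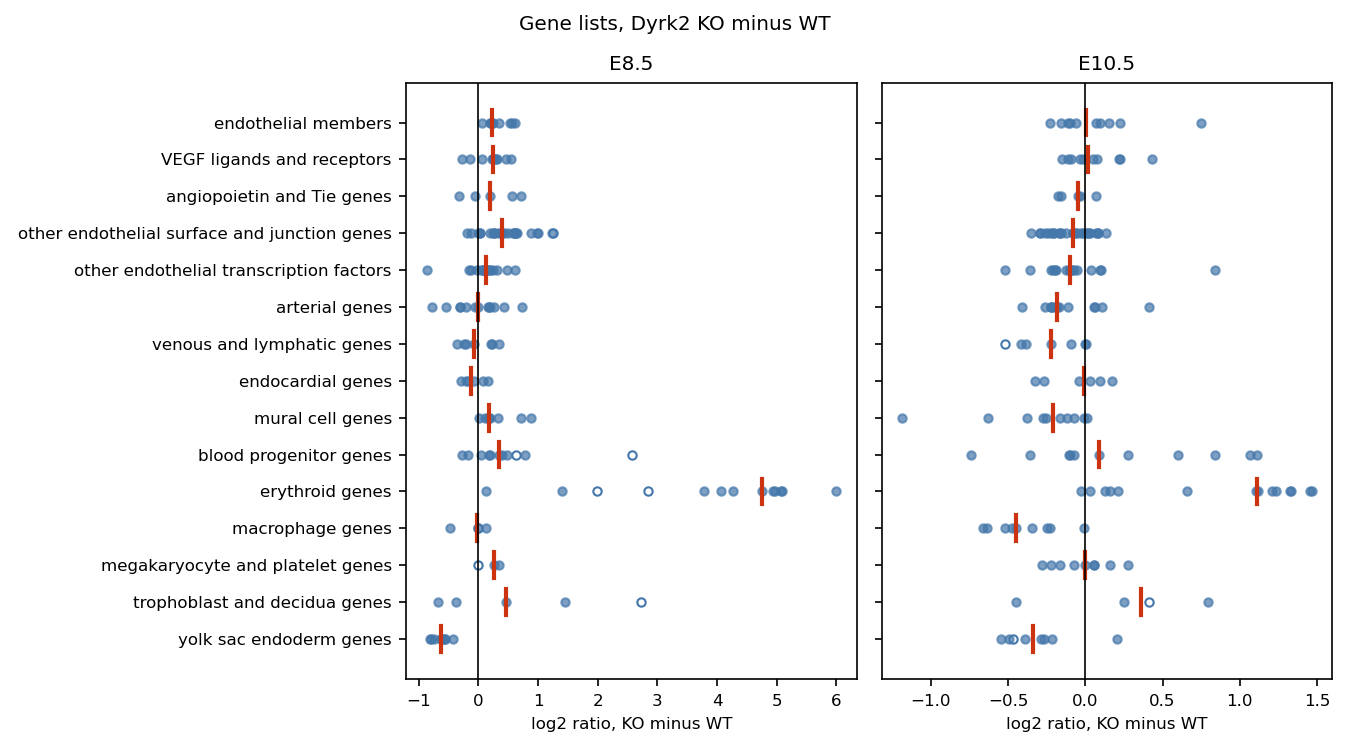
Log2 ratio of the array labelled *Dyrk2*-/- to the WT array at E8.5 (left) and E10.5 (right, on a narrower axis) for the 10 genes and 14 other lists, 15 in all. Filled points are genes well above background on both arrays, open points are bounds for genes above it on 1 array, and red bars are medians of the ratios without bounds. The erythroid list had a median of 4.75 on the left and 1.11 on the right, and the 10 endothelial genes 0.24 and 0.00.

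Markers of other cell types moved between the same arrays. Erythroid genes stood far apart at E8.5. There 12 of the 13 measured were 1.5-fold or more higher on the array labelled *Dyrk2*-/-, against 5.14% of all genes. Their median log2 ratio was 4.75, or 4.27 with genes above background on 1 array at their bound. *Hbb-y*, an embryonic globin, read 0.15 (WT) and 6.15 (*Dyrk2*-/-) for the E8.5 pair and 8.44 and 8.47 for the E10.5 pair. The WT E8.5 array was the low one of the 4. The summed scaled signal of the list was 115.9, 495.9, 1463 and 1701 (WT and *Dyrk2*-/- at E8.5, then at E10.5). The brightest probe in the sum was that of *Hemgn* on the WT E8.5 array, of *Hbb-bh1* on the *Dyrk2*-/- E8.5 array and of *Hbb-y* at E10.5, and brightness also depends on the probe. Without *Hemgn*, a step chosen after its values were seen (6.62 and 6.74 at E8.5), the sums were 17.6, 388.7, 1386 and 1625, a ratio of 22.1 instead of 4.28 at E8.5. *Epb42* and *Klf1* were not well above background on the WT E8.5 array. At E10.5, 9 of 14 were 1.5-fold or more higher, against 3.5% of all genes, among them *Epb42* (2.74-fold) and *Ahsp* (2.52-fold). *Hemgn* was bright on all 4 arrays and fell with age.

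The summed signal of the 10 endothelial genes was 21.7, 25.9, 21.8 and 21.3 on the same arrays, with the probe of *Kdr* the brightest on each. Blood progenitor genes had a median log2 ratio of 0.35 (E8.5) and 0.09 (E10.5) and summed signals of 14.3, 18.2, 15.2 and 18.6, with the brightest probe that of *Lmo2* at E8.5, of *Ptprc* on the WT E10.5 array and of *Lyl1* on the *Dyrk2*-/- E10.5 array. With spike-in scaling the E8.5 median was −0.19, with 3 of 11 higher, and without scaling the E10.5 median was −0.04. *Lyl1* was 1.72-fold higher in *Dyrk2*-/- at E8.5 and 1.52-fold at E10.5. *Gfi1b*, a factor of red cells and platelets, was not well above background on the WT E8.5 array, was at least 5.96-fold higher in *Dyrk2*-/- there, and 2.09-fold higher at E10.5. *Ikzf1* was 2.16-fold higher at E10.5. *Runx1*, needed for blood cells to emerge from endothelium, read −3.38 and −3.33 for the E8.5 pair and −1.56 and −1.92 for the E10.5 pair, with another probe in the opposite direction between stages, and *Spi1* passed the background flag on no array. The part of the blood genes in the endothelial results was not tested.

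Macrophage and platelet genes bear on *Pecam1*, *Vwf* and *Mmrn1*, which those cells can share. At E8.5, 3 of the 9 platelet genes were above background on at least 1 array, among them *Itgb3* and *Itga2b*, which were 0.27 and 0.35 higher in *Dyrk2*-/-. *Gp1bb* was the remaining gene of the 3, above background on the WT array only, and read −4.52 and −5.08. With spike-in scaling all 3 were lower in *Dyrk2*-/-. *Pf4*, *Ppbp* and *Gp9* were among the other 6. *Pf4* read 2.67 and 2.44 at E10.5, and was at least 179.5-fold higher there in WT and 125.4-fold in *Dyrk2*-/-. All 9 platelet genes and all 9 macrophage genes rose with age (limma, Benjamini-Hochberg), against 15.7% of all probes. Only 2 of the platelet and 3 of the macrophage genes were above background on all 4 arrays. Genes above it at E10.5 alone entered the test through the stage where they were high. The summed signal was 0.723, 0.861, 9.75 and 8.89 for the platelet list, with brightest probes of *Itgb3* at E8.5 and *Pf4* at E10.5, and 1.37, 1.37, 5.18 and 4.02 for the macrophage list, with brightest probes of *Cd68* at E8.5 and *Csf1r* at E10.5. *Cx3cr1* and *Adgre1* were not above background on either E8.5 array. At E10.5 all 9 macrophage genes read lower in *Dyrk2*-/-, with a median of −0.45, and 2 of them 1.5-fold or more, *C1qa* (1.59-fold) and *Adgre1* (1.55-fold), against 4.22% of all genes. With spike-in scaling 8 of the 9 were lower and 0 by 1.5-fold, while without scaling 4 passed that threshold. The part of macrophage and platelet genes in the rise of endothelial genes that these cells also carry was not tested.

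The mural cell list holds genes of pericytes and smooth muscle around vessels, and also the endothelial *Pdgfb*. All 8 of its genes measured at E8.5 read higher in *Dyrk2*-/-, against 46.5% of all genes, with a median of 0.19. Under spike-in scaling 2 of the 8 were higher and the median was −0.36. The list had summed signals of 69.0, 76.1, 53.5 and 50.2, with *Acta2* the brightest probe. *Cspg4* (NG2) was 1.84-fold and *Pdgfb*, the endothelial ligand that recruits pericytes, 1.64-fold higher. At E10.5, 9 of 10 read lower, *Kcnj8* by 2.27-fold and *Rgs5* by 1.55-fold, where 49.9% of all genes were higher and 4.22% were 1.5-fold lower. With spike-in scaling 6 of the 10 were lower, and 1 by 1.5-fold or more. *Kcnj8* and *Abcc9*, channel genes of pericytes, were not well above background on either E8.5 array. *Cspg4* rose with age by 2.20 and *Pdgfb* by 1.27 (adjusted p = 0.000530 and 0.00139, limma with Benjamini-Hochberg), and *Acta2* fell by 1.26 (adjusted p = 6.02e-05).

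Genes listed as markers of tissues outside the embryo proper also differed between the arrays. All 9 yolk sac endoderm genes read lower in *Dyrk2*-/- at E8.5, where 46.5% of all genes read higher. Of the 9, 6 passed 1.5-fold (median −0.63), against 6.52% of all genes. *Amn* and *Cubn*, endocytic receptors of visceral endoderm, were 1.75-fold and 1.72-fold lower. The summed signals were 53.6, 35, 25.0 and 20.4, with brightest probes of *Rbp4* at E8.5 and *Afp* at E10.5. Between stages the median was −4.37 in WT and −4.13 in *Dyrk2*-/-, or −4.01 and −3.32 with genes at their bound. With age 7 of the 9 fell, and *Afp* and *Trf* rose (limma, Benjamini-Hochberg), against 19.6% and 15.7% of all probes. Of the 7, *Apoa4* was above background on the E8.5 arrays only and so entered the test through the stage where it was high. Yolk sac carries vessels and blood islands, and the amount of yolk sac in each sample is not given in the sources used here. Its part in the fall of *Etv2* and in the E8.5 ratios was not tested. Of 8 trophoblast and decidua genes on the arrays 5 were measured at E8.5, with summed signals of 15.2, 10.6, 16.2 and 19.2, with *Gcm1* the brightest probe. Of the 5, 3 were higher in *Dyrk2*-/-, with a median of 0.46, and with spike-in scaling 2 were, with a median of −0.09. *Prl8a2* was 2.72-fold higher and *Gcm1* 1.59-fold lower in *Dyrk2*-/- at E8.5. *Prl3d1*, above background on the *Dyrk2*-/- E8.5 array only, was at least 6.62-fold higher there, and *Tpbpa* passed the background flag on no array.

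Among 18806 genes well above background on all 4 arrays, the 5 genes outside the lists whose pattern lay nearest to the mean of the 10 were *Zcchc3*, *Hus1*, *Gmppa*, *Rras* and *Ap5b1*. Likeness was the largest difference on any of 4 arrays after centring, which ran from 0.00 for *Zcchc3* to 0.03 for *Ap5b1*. The centred mean of the 10 was −0.05 and 0.28 for the E8.5 pair and −0.15 and −0.08 for the E10.5 pair, with the *Dyrk2*-/- E8.5 array the high one. Since that mean adds genes that rose and fell, it is the pattern of no single gene. Among the list genes, the nearest to *Pecam1* was *Erg* (0.07). The nearest to *Etv2* was the yolk sac gene *Apoa1*, at a distance of 0.485.

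Promoter sequences of RefSeq (GRCm38.p6) were at hand for 7 of the 10 genes, *Kdr*, *Flt1*, *Tek*, *Tie1*, *Emcn*, *Etv2* and *Erg*, with 9 starts in all. ETS factors such as Etv2 and Erg bind a GGAA core, and the letters AGGAAG and CGGAAG were searched on both strands in the 250 bases before each start. At least 1 match stood in 5 of the 9 windows, where 39.2% of 32851 windows of that length held one. The windows with a match were those of *Emcn*, *Flt1*, *Tie1*, *Etv2* and 1 of 3 starts of *Erg*, and those of *Kdr*, *Tek* and the other starts of *Erg* had none. Genes with a match both rose and fell with age. The windows of *Emcn* (chr3:137340828-137341077, plus strand), *Tie1* (chr4:118489850-118490099, minus strand) and *Etv2* (chr7:30635853-30636102, minus strand) are shown, as the genes that rose and fell most of those with a match, with the matched letters in capitals. A match describes these letters and not a bound site.
Emcn: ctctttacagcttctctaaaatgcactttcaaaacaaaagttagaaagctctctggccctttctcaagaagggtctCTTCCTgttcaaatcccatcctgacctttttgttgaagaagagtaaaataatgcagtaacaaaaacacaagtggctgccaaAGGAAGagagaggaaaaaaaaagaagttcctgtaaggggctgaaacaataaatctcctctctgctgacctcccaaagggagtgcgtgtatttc
Tie1: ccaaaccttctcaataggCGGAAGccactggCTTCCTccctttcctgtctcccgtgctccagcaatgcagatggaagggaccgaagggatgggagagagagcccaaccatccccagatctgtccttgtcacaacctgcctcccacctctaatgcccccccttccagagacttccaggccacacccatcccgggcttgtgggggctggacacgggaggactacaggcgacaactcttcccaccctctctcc
Etv2: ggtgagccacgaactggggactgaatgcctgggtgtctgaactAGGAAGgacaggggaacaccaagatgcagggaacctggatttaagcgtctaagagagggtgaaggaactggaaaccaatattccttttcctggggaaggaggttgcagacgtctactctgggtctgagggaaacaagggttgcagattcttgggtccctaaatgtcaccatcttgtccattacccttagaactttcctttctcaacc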

How the data were processed

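The 4 RNAs came from whole embryos, 1 for each genotype and stage, and were hybridized in one colour to 4 Agilent mouse arrays on 1 slide. The authors deposited the scanner output, whose intensity is linear and has its background subtracted but no scaling between arrays, and a table of linear intensities. The file headers give Feature Extraction 10.7.1.1 and the submitters' processing notes 9.5.1.1. Of 56605 probes, 1 had no value. Well above background were 31370 (WT) and 30226 (*Dyrk2*-/-) for the E8.5 pair and 31818 and 31943 for the later pair.

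Spots marked as outliers were left out, log2 of the deposited intensity was averaged per probe, and every array had its 75th percentile taken off. Genes other than the 10 took their names from RefSeq, where 32988 probes had a matching accession and 1534 changed name. A pair was compared in genes that passed the background flag on either of its arrays. If only 1 passed, the fold is a lower bound (at least), taken to the lowest passing value of the dimmer array or to the gene's own value there, whichever is larger. Counts and medians use the values as measured. Stage and genotype were fitted together with limma 3.58.1 (lmFit, eBayes with an intensity trend, R 4.3.3) over the probes that passed on 2 or more arrays, all of which entered the Benjamini-Hochberg adjustment. Nothing in the sources says that the arrays on each side come from separate litters. The p-values rest on the 1 residual degree of freedom joined with a variance shared over probes of similar intensity. They do not measure a spread between embryos of a group. Fits were tested on simulated data. The spread between spots is the median SD of the 60 repeated probes nearest in signal. The annotation gives probe positions in mm9. Python 3.11.15, numpy 2.4.6 and pandas 2.3.3 were used.

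The alternatives were quantile normalization, normexp as background correction (offset 50), spike-in probes for scaling (7 of 10 usable), no scaling, the deposited table, stricter and no filters on dim probes, the mean over a gene's probes (those above background on at least 2 arrays), a 2-fold threshold, 1.5-fold joined with a Z-score beyond 2 in either direction, and limma without the trend. The genes named are the 10 with all their probes, *Dyrk2*, *Rplp0*, *Xist* and 4 Y-linked genes, up to 3 genes per list and comparison with the largest ratio among genes well above background on both arrays, genes that define a list, the gene with the brightest probe of a list, and the 5 nearest in pattern. *Adgrl4* was named besides, as a gene above background on 1 array of the E8.5 pair. The 10 genes and the lists were chosen with earlier results of these data known.

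Several limits apply to all results. Genotype is read from labels, and a *Dyrk2* probe that was not lower could not check it. The sources do not give the embryos, litters or sexes behind each RNA, and the E10.5 pair differed in sex-linked genes. Whole embryos mix cell types, and blood and yolk sac genes differed between the same arrays. The additive fit has 1 residual degree of freedom. Scaling by spike-in probes reversed many small genotype ratios, and the arrays themselves do not tell which scaling is right. No mm9 genome was at hand to realign the probes.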

Additional observations from a re-analysis of the deposited data

Results flagged for a closer look

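For 5 of the 10 genes the ratio of *Dyrk2*-/- to WT had opposite signs at the 2 stages, higher at E8.5 and lower at E10.5. The E8.5 log2 ratio exceeded the E10.5 one by 0.72 for *Tie1* (0.57 and −0.16), by 0.71 for *Emcn* (0.61 and −0.10), by 0.60 for *Cdh5* (0.54 and −0.06), by 0.46 for *Sox18* (0.23 and −0.23) and by 0.35 for *Kdr* (0.24 and −0.11). With 1 array per group these differences were not tested. The E10.5 ratios of *Emcn*, *Cdh5* and *Kdr* were smaller than their spread between spots of 0.13. Under spike-in scaling *Tie1* (0.02 and 0.01) and *Emcn* (0.07 and 0.06) were higher at both stages, *Sox18* (−0.32 and −0.07) was lower at both, and *Kdr* (−0.30 and 0.05) and *Cdh5* (−0.01 and 0.10) were lower at E8.5 and higher at E10.5.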

How the results depend on the processing

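The fall of *Etv2* and *Tek* and the rise of *Emcn* and *Tie1* with age kept their direction in both genotypes under all alternatives. Small ratios between genotypes depended on the scaling. At E8.5 the median log2 ratio of the 10 genes was 0.24, and −0.31 with spike-in scaling and −0.0203 without scaling. Of the genes, 1 differed 1.5-fold or more, and 0 did under normexp, spike-in scaling, no scaling, a 2-fold threshold or an added Z-score. At E10.5 the median was 0.00, −0.0263 under normexp, 0.17 with spike-in scaling, −0.13 without scaling and −0.0234 with the mean over probes. The count of 1 became 0 under normexp, the 2-fold threshold and the Z-score. Between the stages in WT the median was 0.39, 0.23 under normexp and 0.57 without scaling, and the count of 6 ran from 5 to 7 over scalings and background corrections, and became 3 at 2-fold and 1 with the Z-score. In *Dyrk2*-/- the median was 0.02, −0.0481 under normexp, 0.66 with spike-in scaling and 0.33 without scaling, and the count of 4 (1 higher, 3 lower) became 3 under quantile normalization, normexp and the deposited table, 6 with spike-in scaling (5 higher, 1 lower), 6 without scaling (4 higher, 2 lower), 2 at 2-fold and 1 with the Z-score. Limma called 7 genes for stage, 2 with spike-in scaling (8.15% of all probes) and 3 without the trend (19.9%), and 6 or 7 under the other alternatives. For genotype it called 0 under each, while at most 2 genes had an unadjusted p under 0.05. Of all probes, the share called for genotype ran from 0% without the trend to 2.26% without scaling. Among the single genes that turned, *Kdr* (0.0422) and *Flt4* (0.0147) did so between stages in *Dyrk2*-/- with spike-in scaling, as did *Flt1* (0.21) and *Sox18* (0.45, and 0.12 without scaling), and *Notch1* at E8.5 (0.0087) with the mean over probes. Spike-in scaling also turned other genes with small ratios. Bounds, an alternative chosen after seeing the data, do not apply to the 10 genes, which were above background on all 4 arrays. Causes other than the shift that a scaling adds to every ratio of a pair were not tested.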
